A study of Mus musculus with 8 samples.

Results

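Claudins are membrane proteins that form the strands of tight junctions, the seals that join neighbouring epithelial cells near their apical surface. Some claudins tighten the seal, whereas others form channels through it for ions or water, so that the mixture a cell expresses sets what can pass between cells. In the thyroid, the follicle depends on this seal to keep thyroglobulin in its lumen, and in the lung the alveolar epithelium depends on it to keep fluid out of the airspace. The claudins described here are the 10 genes CLDN1, CLDN2, CLDN3, CLDN4, CLDN6, CLDN7, CLDN8, CLDN10, CLDN18 and CLDN23, taken by symbol from a table of 16119 genes that lists 22 claudins in all. All 10 passed the filter on low values, which asked for 10 or more normalized counts in at least 2 of the 8 libraries and left 14703 genes.

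Bulk RNA was sequenced from thyroid follicular cell organoids (TFCOs), thyroid tissue and lung tissue of wild type C57BL/6 mice. From each of the TFCO lines mThy14 and mThy16 came 1 early and 1 late passage library, and these were set beside 2 thyroid tissues and 2 lung tissues, the lung serving as an unrelated tissue. In the protocol, a culture was started from the cells of a single thyroid, which does not mean that both lines came from the same gland. TFCOs were grown in basement membrane extract with R-spondin 3, the TGF-beta receptor inhibitor A83-01, forskolin, EGF and FGF10, and no treatment was given. Both passage groups consist of these 2 lines, and the labels do not say whether the tissues came from separate animals, so p-values measure the spread between these samples only.

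Values are normalized counts (reads of a gene over the size factor of its library), and 9755081 to 16904865 reads per library lay on genes. The 8 libraries formed 2 sets across the groups: 44 genes with 50 or more normalized counts in all 4 TFCO libraries and thyroid tissue 1 had 0 in thyroid tissue 2, lung tissue 1 and lung tissue 2, and for 16 genes it was the other way round. Both lung tissues lie in one set and all TFCOs in the other, so tissue and library set cannot be told apart between TFCOs and lung, unless the 2 thyroid tissues are taken to differ by the set alone, as a fit with the set as a term does. The thyroid marker TG ranged from 9532 to 126441 normalized counts in TFCOs, was at 1526002 and 2175016 in thyroid tissue, and at 27.6 and 263 in lung, and PAX8 was at 3925 to 8300 in TFCOs and thyroid tissue and at 0 in both lung tissues. The tissues also held RNA of other cells. Summed endothelial markers (5 of 5 listed) reached 2670 and 6955 in thyroid and 22030 and 42151 in lung, against 317 to 819 in TFCOs, where TEK was at 0 in early mThy16. Summed C cell markers were at 23137 and 36805 in thyroid tissue and summed parathyroid markers at 9811 and 25996, against at most 20.8 and 27.1 in TFCOs, where PTH was at 0 in all 4 libraries. In such bulk samples, fewer cells of a type and less RNA per cell cannot be told apart.

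Among the 10, CLDN3 was the leading claudin of TFCOs and of thyroid tissue, and CLDN18 that of the lung. The shares below leave out claudins that are not among the 10. CLDN5 is such a claudin, and its 3726 and 5179 normalized counts in lung tissues 1 and 2 exceeded those of CLDN3 there. To compare levels between genes, each claudin was divided by its exon length and expressed as a share of the sum over the 10. On this scale CLDN3 took 67.4% and 62.7% in mThy14 at early and late passage, 52.8% and 49.9% in mThy16, and 66.8% and 45.0% in thyroid tissues 1 and 2. CLDN7 came next in 4 of these 6 libraries, with 11.6% to 22.3% over all 6. In lung, CLDN18 took 61.6% and 59.9%, CLDN3 25.9% and 26.9% (9.73% and 10.2% with no division by length), and CLDN7 6.01% and 6.59%. On the scale of exon length, the 3 leading claudins together made up 84.2% to 93.5% of the sum in every library. Outside these 3, CLDN8 still held 10.5% in thyroid tissue 2. With no division by length, CLDN8 held 14.8% there, and CLDN2 held 11.4% and 11.6% in early and late mThy16.

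The third place differed between the libraries. CLDN4 held 12.5% and 12.9% in early and late mThy16, 9.74% in thyroid tissue 1 and 20.1% in thyroid tissue 2, where it ranked second on this scale but behind CLDN7 with coding length or no length. In mThy14, CLDN10 held 13.5% and 15.1%, and CLDN4 only 5.37% and 3.01%. CLDN8 reached 3.00% and 10.5% in thyroid tissue but at most 1.65% in any TFCO library. CLDN2 reached 6.00% and 6.16% in mThy16 (11.4% and 11.6% with no division by length), against at most 0.19% in thyroid tissue. With coding length in place of exon length, CLDN3 still led in TFCOs and thyroid (33.7% to 57.3%) and CLDN18 in lung (75.2% and 73.5%). With no division by length, as would suit reads from transcript ends only, the shares were 33.9% to 55.5% for CLDN3 in TFCOs and thyroid and 81.9% and 80.6% for CLDN18 in lung. The summed level of all 10 per kilobase of exon was 3685 to 6102 in TFCOs, 3892 and 4182 in thyroid and 6233 and 3528 in lung, and these ranges overlap.

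**Figure D1:**
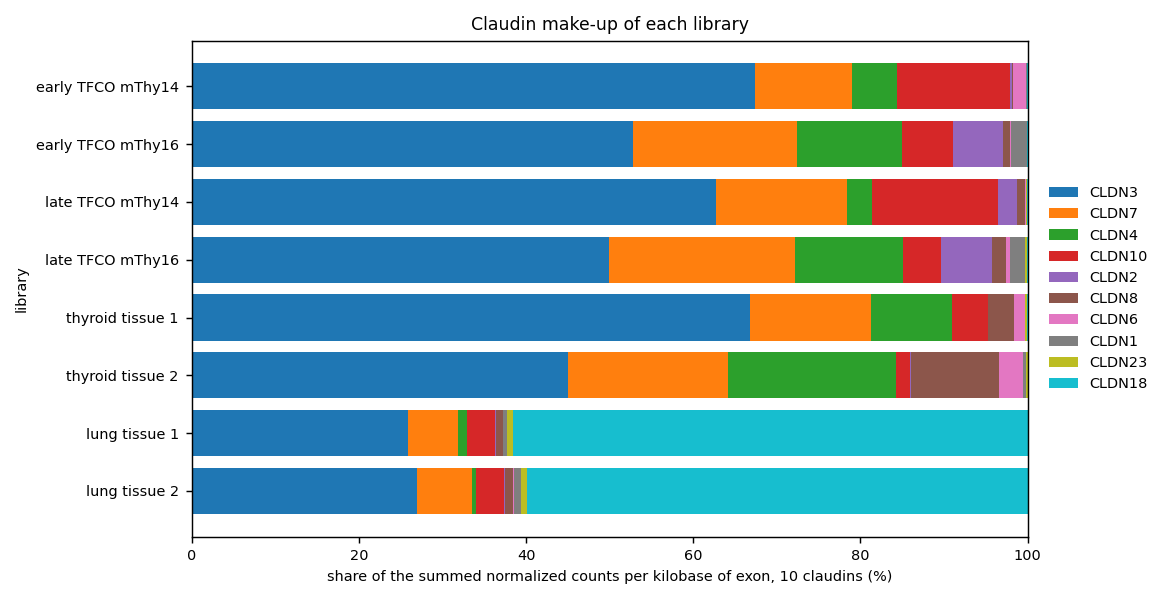
Share of each claudin (x axis, percent of the summed normalized counts per kilobase of exon over the 10 claudins) in each of the 8 libraries (y axis, 1 bar per library, colours mark the claudins). CLDN3 takes 45.0% to 67.4% of the bar in TFCOs and thyroid tissue, and CLDN18 takes 61.6% and 59.9% in the lung tissues.

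CLDN18 forms part of the alveolar barrier in lung, and the gene has alternative first exons, of which one is used in lung and the other in stomach. By GENCODE M21 (mouse build GRCm38), as for all positions given here, it lies on the minus strand of chromosome 9 from 99689461 to 99717267. Because it separates the tissues most widely, the 250 bases before each of its 2 annotated starts are shown, read 5′ to 3′ on the minus strand from RefSeq's GRCm38.p6 promoter table. Neither window holds any of the motifs searched, so no base is in capitals.
CLDN18, upstream start, chr9:99717268-99717517: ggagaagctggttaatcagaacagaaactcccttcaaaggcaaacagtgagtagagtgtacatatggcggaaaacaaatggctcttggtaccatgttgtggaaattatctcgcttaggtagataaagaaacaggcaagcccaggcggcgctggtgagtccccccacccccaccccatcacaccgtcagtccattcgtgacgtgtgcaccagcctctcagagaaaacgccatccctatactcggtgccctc
CLDN18, downstream start, chr9:99710064-99710313: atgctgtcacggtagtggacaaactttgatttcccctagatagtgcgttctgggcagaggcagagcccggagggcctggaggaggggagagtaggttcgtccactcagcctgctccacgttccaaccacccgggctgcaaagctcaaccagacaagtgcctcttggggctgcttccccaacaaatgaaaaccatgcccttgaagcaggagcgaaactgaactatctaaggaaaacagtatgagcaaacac

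Normalized counts of CLDN18 were 17107 and 9419 in the lung tissues 1 and 2. They were 4.35 and 1.84 in the thyroid tissues 1 and 2, 4.22 (early) and 3.12 (late) in mThy14, and 4.95 (early) and 7.83 (late) in mThy16. The lung lay far above all other libraries, and TFCOs and thyroid tissue overlapped. In reads, these values were 34396 over both lung tissues, 6 over both thyroid tissues and 18 over the 4 TFCO libraries. Normalized for depth, lung exceeded thyroid tissue 4289-fold (exact binomial 95% interval 1970 to 11689) and TFCOs 2553-fold (1615 to 4308), and these intervals cover counting error only. On the log2(normalized count + 1) scale CLDN18 was lower than in lung both in thyroid, by a log2 difference of -11.67 (standard error 0.76, limma adjusted p = 0.00104), and in TFCOs, by one of -11.10 (standard error 0.76, limma adjusted p = 0.000546). The difference of TFCOs from thyroid tissue was 0.57 (95% interval -1.21 to 2.35, limma adjusted p = 0.680). Within the set shared by thyroid tissue 2 and lung, the difference was -12.12 (limma adjusted p = 0.0119 with the set as a term). The alveolar markers SFTPC and RTKN2 stood beside CLDN18, with 241128 and 180943 normalized counts of SFTPC in lung against 5.53 to 266 elsewhere, and 4612 and 3234 of RTKN2 against at most 10.1. The markers AGER, AQP5 and ABCA3 were also present in TFCOs and thyroid tissue, where AQP5 had 545 to 7782 normalized counts, unlike CLDN18.

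CLDN3 and CLDN4 are barrier-forming claudins whose genes are neighbours. CLDN3 lies on the plus strand of chromosome 5 from 134986214 to 134987472 and CLDN4 on the minus strand from 134945119 to 134946934, with 39279 bases between them, so that they are transcribed away from each other. The 250 bases before their starts are shown because CLDN3 led in TFCOs and thyroid and CLDN4 passed the test against lung; capitals mark an E-box, CACCTG, which is CAGGTG on the other strand.
CLDN3, plus strand, chr5:134985964-134986213: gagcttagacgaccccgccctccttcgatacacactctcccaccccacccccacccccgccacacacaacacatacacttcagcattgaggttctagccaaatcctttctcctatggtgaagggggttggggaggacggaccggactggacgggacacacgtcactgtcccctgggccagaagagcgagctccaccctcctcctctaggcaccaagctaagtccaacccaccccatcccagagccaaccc
CLDN4, minus strand, chr5:134946935-134947184: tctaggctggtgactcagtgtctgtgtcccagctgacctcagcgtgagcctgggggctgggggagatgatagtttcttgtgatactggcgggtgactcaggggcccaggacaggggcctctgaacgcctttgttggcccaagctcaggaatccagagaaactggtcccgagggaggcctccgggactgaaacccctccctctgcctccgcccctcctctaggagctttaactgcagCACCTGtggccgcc

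Normalized counts of CLDN3 were 5177 (early) and 3944 (late) for mThy14, 2684 and 2317 for mThy16, 3272 and 2368 for the thyroid tissues, and 2033 and 1196 for the lung tissues. TFCOs and thyroid tissue overlapped, and every one of these 6 libraries lay above both lung tissues. The log2 difference was 0.27 for TFCOs against thyroid (95% interval -0.81 to 1.35), 1.11 for TFCOs against lung (limma adjusted p = 0.107) and 0.84 for thyroid against lung (limma adjusted p = 0.332). None of the 3 passed the threshold. Within a set, CLDN3 differed by 0.04 between TFCOs and thyroid tissue 1 and by 0.60 between thyroid tissue 2 and lung (limma adjusted p = 0.985 and 0.632). Over all 8 libraries the level of CLDN3 spanned 4.33-fold, a range wider only than the 3.53-fold of CLDN7 among the 10.

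Normalized counts of CLDN4 were 595 (early) and 273 (late) for mThy14, 918 and 865 for mThy16, 688 and 1528 for the thyroid tissues, and 115 and 35.1 for the lung tissues. Both lung tissues lay below all 6 other libraries. CLDN4 was higher by 3.99 log2 units in thyroid than in lung (standard error 0.72, limma adjusted p = 0.0264) and by 3.22 in TFCOs than in lung (standard error 0.72, limma adjusted p = 0.0258). Between TFCOs and thyroid tissue the difference was -0.77 (95% interval -2.48 to 0.93, limma adjusted p = 0.556). Within a set the thyroid to lung difference was 4.56, with a limma adjusted p of 0.0516, just over the threshold. For thyroid against lung with no set term, leaving out lung tissue 1 or 2 raised the adjusted p from 0.0264 to 0.0838 or 0.193, thyroid tissue 1 to 0.0515 and line mThy14 or mThy16 to 0.0782 or 0.0799; for TFCOs against lung, leaving out lung tissue 1 or 2 gave 0.0567 or 0.154 and line mThy14 or mThy16 gave 0.106 or 0.159. With each library scaled by EPCAM and CDH1 (epithelial scaling), the TFCO to lung difference of CLDN4 was 2.00 (limma adjusted p = 0.0622), and with no trend the adjusted p-values against lung were 0.0531 for TFCOs and 0.0553 for thyroid.

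CLDN7, which binds EPCAM at the lateral membrane of epithelial cells, was the most even member. Its normalized counts were 1383 (early) and 1526 (late) for mThy14, 1548 and 1597 for mThy16, 1098 and 1560 for the thyroid tissues, and 730 and 453 for the lung tissues. All TFCO and thyroid libraries lay above both lung tissues. CLDN7 was higher in TFCOs than in lung by 1.39 log2 units (standard error 0.38, limma adjusted p = 0.0422), the thyroid to lung difference was 1.19 (limma adjusted p = 0.122), and TFCOs differed from thyroid by 0.21 (95% interval -0.69 to 1.11). EPCAM itself had 5497 to 11057 normalized counts in TFCOs, 4600 and 5456 in thyroid and 1442 and 725 in lung. When each library was scaled by EPCAM and the adherens junction protein CDH1, CLDN7 in TFCOs and lung differed by 0.17 (limma adjusted p = 0.888) and CLDN3 by -0.11 (limma adjusted p = 0.934). CDH1, unlike EPCAM, was not lower in lung, with 3286 to 4700 normalized counts in TFCOs and 6895 and 3967 in lung. The CLDN7 call against lung was also lost without lung tissue 1 or 2 (limma adjusted p = 0.140 or 0.245), without line mThy14 or mThy16 (0.162 or 0.163) and with edgeR on recovered reads (edgeR adjusted p = 0.0665).

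CLDN8, a sealing claudin of the distal nephron and other tight epithelia, was highest in thyroid tissue. There it had 275 and 1036 normalized counts, against 32.3 (early) and 108 (late) for mThy14, 80.2 and 143 for mThy16, and 133 and 82.9 for the lung tissues. Both thyroid tissues lay above every other library. The difference of TFCOs from thyroid was -2.73 log2 units (standard error 0.75, limma adjusted p = 0.111) and that of thyroid from lung 2.34 (standard error 0.75, limma adjusted p = 0.121), so neither passed the threshold. Within the library sets, thyroid tissue 2 exceeded lung by 3.29 (limma adjusted p = 0.0483), and TFCOs differed from thyroid tissue 1 by -1.77 (limma adjusted p = 0.234). Thyroid tissue 2 held 3.76 times as much CLDN8 as thyroid tissue 1. It also held more summed markers of epithelium (17294 against 9884), follicular cells (2213305 against 1543951) and skeletal muscle (100940 against 30900). The sums of C cell, parathyroid, endothelial and leukocyte markers were higher there too. Single markers did not all follow their sum, such as the parathyroid marker CASR at 522 against 1286. The part of these cells in the result was not tested. Of 21 alternatives, the difference of TFCOs from thyroid passed in 4 and did not pass in 17. With edgeR on recovered reads it did not pass (edgeR adjusted p = 0.149). It passed with epithelial scaling (-3.22, limma adjusted p = 0.0233), with passages as separate samples (0.0470) and without thyroid tissue 1 (-3.68). Passages of the same line are not independent samples, and without thyroid tissue 1 only thyroid tissue 2, of the other library set, was left. DESeq2 on recovered reads called both differences of CLDN8 (DESeq2 adjusted p = 0.0144 and 0.00964).

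CLDN1, a sealing claudin best known from the skin barrier, was far apart in the 2 TFCO lines. At early and late passage, mThy14 had 12.6 and 12.5 normalized counts but mThy16 had 358 and 322. The thyroid tissues had 9.80 and 65.5, and the lung tissues 142 and 139. mThy14 lay near thyroid tissue 1, and mThy16 lay above every tissue. No comparison with a tissue passed the threshold (limma adjusted p = 0.636 against thyroid and 0.622 against lung).

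**Figure D2:**
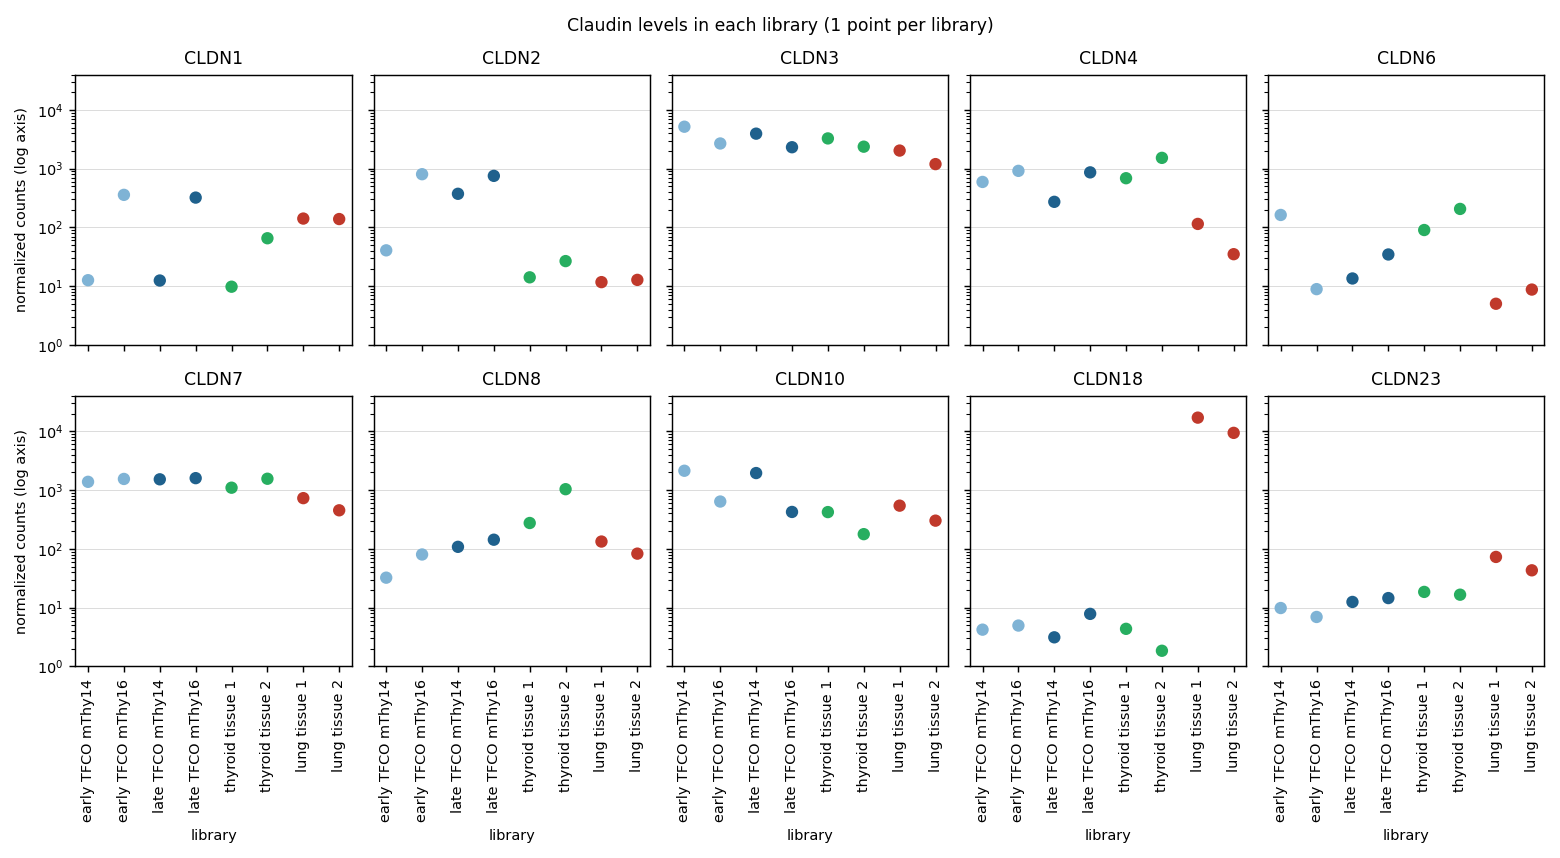
Normalized counts (y axis, log scale) of the 10 claudins, 1 panel each, in the 8 libraries (x axis, 1 point per library; light blue early TFCOs, dark blue late TFCOs, green thyroid tissue, red lung tissue). CLDN18 is at 17107 and 9419 in the lung tissues and at most 7.83 elsewhere, and CLDN1 is near 12.5 in mThy14 and above 300 in mThy16.

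CLDN2 forms a channel for cations and water and is typical of leaky epithelia. The gene lies on the plus strand of chromosome X from 139800828 to 139811386, and the 250 bases before its start in the promoter table are shown because CLDN2 had the largest difference of the 10 between TFCOs and thyroid tissue; capitals mark TATAAA, 35 bases before the start.
CLDN2, plus strand, chrX:139800558-139800807: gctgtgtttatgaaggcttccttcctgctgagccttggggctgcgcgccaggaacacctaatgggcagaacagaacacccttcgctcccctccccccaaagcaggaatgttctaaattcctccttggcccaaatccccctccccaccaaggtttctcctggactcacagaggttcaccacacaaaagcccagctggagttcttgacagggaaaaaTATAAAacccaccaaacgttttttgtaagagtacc

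Normalized counts of CLDN2 were 40.8 (early) and 374 (late) for mThy14 and 805 and 755 for mThy16. The thyroid tissues had 14.2 and 26.7, and the lung tissues 11.7 and 12.8. All 4 TFCO libraries lay above all 4 tissues, with early mThy14 nearest to them. CLDN2 was higher in TFCOs than in lung by 4.56 log2 units (standard error 1.04, limma adjusted p = 0.0268), which became 0.163 or 0.153 without lung tissue 1 or 2, 0.0799 without late mThy14, and 0.0581 or 0.133 without line mThy14 or mThy16. Against thyroid tissue the difference was of like size, 3.93 (standard error 1.04, 95% interval 1.48 to 6.38), but missed the threshold over all genes (unadjusted p = 0.00670, limma adjusted p = 0.10). On reads recovered from the table it passed with both count models (edgeR adjusted p = 0.0435, DESeq2 adjusted p = 6.2e-07). These models sum the passages of mThy14, with 29 early and 359 late reads, and leave out early mThy16. In limma the adjusted p was 0.285 without late mThy14, 0.0293 without early mThy14 and 0.162 with the set as a term.

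CLDN10 makes ion channels whose selectivity depends on which first exon is used, and the table counts both forms together. Its level was 2134 (early) and 1949 (late) normalized counts for mThy14, 639 and 425 for mThy16, 422 and 178 for the thyroid tissues, and 544 and 302 for the lung tissues. TFCOs lay above thyroid tissue, late mThy16 by only a few counts, and they overlapped with lung. The difference of TFCOs from thyroid was 1.91 log2 units (standard error 0.74, limma adjusted p = 0.233), and within a set 1.29 (limma adjusted p = 0.546). CLDN2 and CLDN10 were thus each higher in every TFCO library than in either thyroid tissue, and neither difference passed the threshold. Of the 2 lines, mThy16 had more CLDN2 and mThy14 more CLDN10.

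CLDN6 is known from embryonic epithelia and is low in most adult tissues. Here it had 163 (early) and 13.5 (late) normalized counts for mThy14, 8.91 and 34.7 for mThy16, 90.4 and 207 for the thyroid tissues, and 5.03 and 8.76 for the lung tissues. CLDN6 was higher in thyroid than in lung by 4.17 log2 units (standard error 0.94, limma adjusted p = 0.0487), and within a set by 4.76 (limma adjusted p = 0.0471). This call was lost in 14 of 21 alternatives, among them leaving out lung tissue 1 or 2 (limma adjusted p = 0.331 or 0.269), early mThy14 (0.0529), late mThy14 or mThy16 (0.0935 or 0.0736), line mThy14 or mThy16 (0.0970 or 0.0914) and edgeR on recovered reads (edgeR adjusted p = 0.0559). The difference of TFCOs from thyroid was -2.18 (95% interval -4.39 to 0.03, limma adjusted p = 0.273). CLDN6 lies on chromosome 17 from 23679249 to 23682446 with CLDN9, a close relative, only 137 bases away. CLDN9, which is not among the 10, ranged from 57.2 to 292 normalized counts over TFCOs, was at 143 and 19.4 in the thyroid tissues, and at 0 and 0.67 in lung. The 2 neighbours were both near 0 in lung, and CLDN9 was higher in thyroid by 5.39 (limma adjusted p = 0.0404).

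CLDN23, one of the less studied claudins, was low throughout. It reached 72.9 and 43.1 normalized counts in the lung tissues and 18.5 and 16.6 in the thyroid tissues, against 9.84 (early) and 12.5 (late) for mThy14 and 6.93 and 14.5 for mThy16. The groups did not overlap, with lung highest and TFCOs lowest. Between TFCOs and thyroid this order rests on 7 to 13 reads per TFCO library against 17 and 18 in thyroid tissue. That difference was -0.68 log2 units (limma adjusted p = 0.663). The difference of TFCOs from lung was -2.30 log2 units and missed the threshold (limma adjusted p = 0.0821). It also missed it in 16 of 21 alternatives, among them the set as a term (-2.45, limma adjusted p = 0.285). In the other 5 it passed: with no trend (limma adjusted p = 0.0302), with epithelial scaling (-3.52, 0.0318), with passages as separate samples (0.0266), and without thyroid tissue 1 or 2. Passages of the same line are not independent samples, and the thyroid tissues are not part of this difference, which stayed at -2.30 without either. Within a set, thyroid tissue 2 differed from lung by -1.70 (limma adjusted p = 0.245).

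Counted over the 10 claudins, 0 passed the threshold between TFCOs and thyroid tissue, where 3.65% of all genes did, and 3 (CLDN2, CLDN8 and CLDN10) had an unadjusted p under 0.05. Both edgeR and DESeq2 on recovered reads called CLDN2, and DESeq2 also called CLDN8. Between TFCOs and lung 4 of 10 passed, against 23.4% of all genes: CLDN2, CLDN4 and CLDN7 were higher (9.83% of all genes) and CLDN18 lower (13.5%). Between thyroid and lung 3 of 10 passed, against 6.05% of all genes: CLDN4 and CLDN6 were higher (2.89%) and CLDN18 lower (3.16%). The median log2 difference of the 10 was 0.24, 1.23 and 0.73 in these comparisons, against 0.05, 0.05 and 0.03 over all genes tested. The libraries of the 2 groups did not overlap for 4 claudins between TFCOs and thyroid (34.5% of all genes), 7 between TFCOs and lung (67.7%) and 9 between thyroid and lung (53.8%). TFCOs and thyroid tissue are each compared with the same 2 lung tissues, so the counts share those samples.

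With the library set as a term, CLDN18 remained past the threshold in both comparisons with lung and CLDN6 in that of thyroid with lung. CLDN2, CLDN4 and CLDN7 in TFCOs against lung then had limma adjusted p-values of 0.182, 0.151 and 0.167, with differences of 5.43, 4.37 and 1.90 log2 units in the same direction. Of the 10 claudins, 0 were 8-fold or more apart between every library of one set and every library of the other, against 4.41% of all genes tested. For 10 genes, a count of 0 is near that share. Smaller differences between the sets are not covered by this rule.

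**Figure D3:**
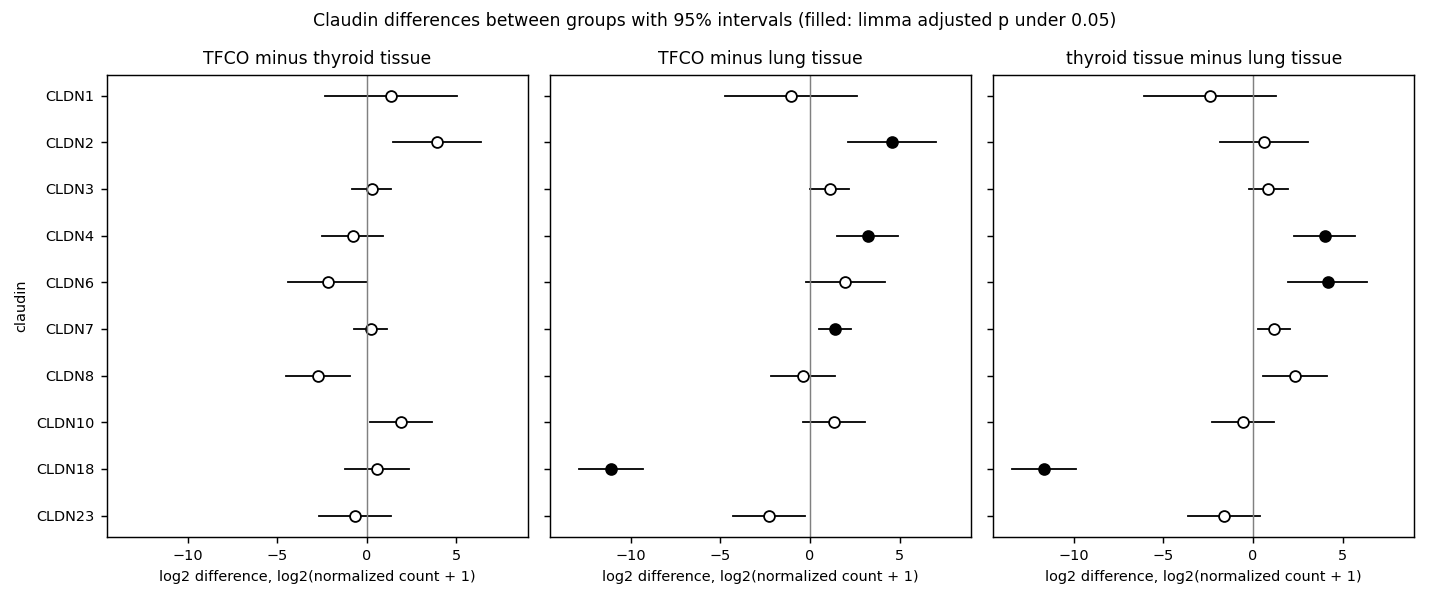
Log2 difference (x axis, on log2(normalized count + 1)) of each claudin (y axis) in 3 comparisons of groups, with 2 TFCO lines, 2 thyroid tissues and 2 lung tissues in 1 fit; bars are 95% intervals and filled points passed an adjusted p of 0.05. No point is filled between TFCOs and thyroid, and CLDN18 stands at -11.10 and -11.67 against lung.

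Between late and early TFCOs 0 of 10 claudins passed the threshold, as did 0% of the 14703 genes (limma, Benjamini-Hochberg adjustment); 166 genes and 0 claudins had an unadjusted p under 0.05. Late and early libraries did not overlap for CLDN8 and CLDN23 (23.3% of all genes), and both were higher at late passage in each line. CLDN8 was at 3.35 times its early level in mThy14 and 1.78 times in mThy16, and CLDN23 at 1.27 and 2.10 times. CLDN3 and CLDN7 held within 0.76 to 1.10 times their early level in both lines. CLDN10 was lower at late passage in both lines, at 0.91 times its early level in mThy14 and 0.67 times in mThy16. CLDN1 was at 0.99 and 0.90 times. Some other claudins moved mainly in one line or in opposite directions. CLDN2 was at 9.17 times its early level in late mThy14 and at 0.94 times in late mThy16. CLDN6 was at 0.08 times its early level in late mThy14 and at 3.89 times in late mThy16, and CLDN4 was at 0.46 and 0.94 times. Each of these is a single library against a single library.

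Between the lines, 3 of the 10 claudins were 2-fold or more apart in the same direction at both passages, as were 14.3% of all genes tested. This measure was chosen after the values were seen and has no test. CLDN1 was 28.3- and 25.8-fold higher in mThy16 at early and late passage, CLDN2 19.8- and 2.02-fold higher, and CLDN10 3.34- and 4.59-fold higher in mThy14. Other genes were divided the same way. The ciliated cell regulator FOXJ1 was at 35.1 (early) and 442 (late) normalized counts in mThy14 and at 6122 and 6016 in mThy16, and the keratin KRT8 had 3605 and 4694 against 16824 and 17272. The junction proteins CXADR (243 and 294 against 1552 and 1673), AMOT (30.9 and 79.1 against 1140 and 1457) and AMOTL2 (367 and 473 against 4017 and 3939) were also higher in mThy16. TG, the thyroid hormone precursor, had 126441 and 64646 normalized counts in mThy14 against 12225 and 9532 in mThy16, and PAX8, less than 2-fold apart, had 8273 and 7560 against 4259 and 3925. The part of these cell states in the claudin differences was not tested.

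Of the claudins that are not among the 10, 12 were listed and 5 passed the filter. CLDN5, the claudin of endothelium, had 3726 and 5179 normalized counts in lung, 229 and 97.7 in thyroid tissues 1 and 2, and 6.24 to 18.3 in TFCOs. It was lower in TFCOs than in thyroid (log2 difference -3.42, limma adjusted p = 0.0252) and than in lung (-8.29, limma adjusted p = 0.000546), and lower in thyroid than in lung (-4.87, limma adjusted p = 0.00779). Of the 5 endothelial markers, 3 were lower in TFCOs than in thyroid, where 3.65% of all genes passed in either direction. Against lung, 5 were lower in TFCOs (13.5% of all genes) and 1 was lower in thyroid (3.16%). With the set term these counts were 0, 1 and 0. Between thyroid tissues 1 and 2 the sum of the markers was 2670 and 6955, where CLDN5 had 229 and 97.7. CLDN9 was higher in TFCOs than in lung by 6.74 (limma adjusted p = 0.0111), but with the library set as a term this was 3.92 (limma adjusted p = 0.126). CLDN12 was broadly present, at 129 to 503 in TFCOs, 274 and 544 in thyroid and 571 and 546 in lung. CLDN15 and CLDN19 passed the filter without passing a test.

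Of 11 other membrane proteins of tight junctions, 1 differed between TFCOs and thyroid (3.65% of all genes), 5 between TFCOs and lung (23.4%), and 1 between thyroid and lung (6.05%). With the library set as a term these were 0, 0 and 1. ILDR1, a component of tricellular junctions, was higher in TFCOs than in lung by 2.67 (limma adjusted p = 0.00458) and in thyroid than in lung by 2.20 (limma adjusted p = 0.0184). The adhesion molecule JAM3 was lower in TFCOs than in thyroid (log2 difference -5.20, limma adjusted p = 0.0363) and than in lung (-4.84, limma adjusted p = 0.0180), and JAM2 was lower in TFCOs than in lung (-5.77, limma adjusted p = 0.0125). With the set term, the adjusted p-values of JAM3 were 0.116 and 0.296, that of JAM2 was 0.290 (difference -2.97), and those of ILDR1 were 0.0868 in TFCOs and 0.0401 in thyroid against lung (limma). Occludin (OCLN) did not pass the threshold in any comparison, with 374 to 660 normalized counts in TFCOs, 804 and 612 in thyroid and 1105 and 954 in lung. Of 18 scaffold proteins tested, 0 differed between TFCOs and thyroid, 4 between TFCOs and lung and 1 between thyroid and lung. With the set term 0, 0 and 1 passed, the last of these higher in thyroid. TJP3, which links claudins to actin, was higher in TFCOs than in lung by 1.62 (limma adjusted p = 0.0452), and MPDZ was lower (log2 difference -2.49, limma adjusted p = 0.0388). The polarity protein PARD6B was lower than in lung in TFCOs (-3.47, limma adjusted p = 0.0239) and in thyroid (-3.55, limma adjusted p = 0.0416), and neither call was kept with the set term (limma adjusted p = 0.486 and 0.0789).

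Of 14 proteins of adherens junctions and desmosomes, 1 was higher in TFCOs than in thyroid, where 3.65% of all genes passed in either direction. Against lung, 3 were higher and 1 lower in TFCOs (9.83% and 13.5% of all genes). In thyroid 1 was higher and 1 lower than in lung (2.89% and 3.16%). NECTIN3, an adhesion molecule, was higher in TFCOs than in thyroid by 4.50 log2 units (limma adjusted p = 0.00514), and it was lower in thyroid than in lung (-4.35, limma adjusted p = 0.00453). The desmosomal DSC2 was higher than in lung both in thyroid (by 4.31, limma adjusted p = 0.0184) and in TFCOs (by 2.61, limma adjusted p = 0.0381). PKP3 and DSP, also desmosomal, were higher in TFCOs than in lung by 1.96 (limma adjusted p = 0.0293) and 1.26 (limma adjusted p = 0.0418). With the set term, the 3 desmosomal calls in TFCOs against lung were lost (limma adjusted p = 0.0780 for DSC2, 0.393 for PKP3 and 0.40 for DSP), and DSC2 and NECTIN3 between thyroid and lung and NECTIN3 between TFCOs and thyroid were kept (0.0200, 0.0129 and 0.0289). Of 19 regulators of epithelial identity, 3 differed between TFCOs and thyroid, 11 between TFCOs and lung (7 higher and 4 lower) and 2 between thyroid and lung, against 3.65%, 23.4% and 6.05% of all genes. With the set term, 2, 1 and 0 passed: EHF and ZEB2 between TFCOs and thyroid (limma adjusted p = 0.0302 and 0.0440) and ZEB2 between TFCOs and lung (0.0439). The epithelial factor EHF was higher in TFCOs than in thyroid by 3.95 (limma adjusted p = 0.0119). ZEB1 and ZEB2, repressors of epithelial genes, were lower in TFCOs than in thyroid (log2 differences -4.71 and -3.79, limma adjusted p = 0.00928 and 0.0157) and than in lung (-6.73 and -5.45, limma adjusted p = 0.00110 and 0.00193). SNAI1 and SNAI2, repressors of the same kind, were lower in TFCOs than in lung (-4.29 and -4.05, limma adjusted p = 0.0138 and 0.0162). OVOL1 and GRHL1, which sustain epithelial genes, were higher in thyroid than in lung by 2.87 (limma adjusted p = 0.0424) and 1.97 (limma adjusted p = 0.0385).

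Some junction genes were far apart between the library sets. F11R, the junctional adhesion molecule A, had 1.98 to 9.84 normalized counts in TFCOs and 3.27 in thyroid tissue 1, but 2357 in thyroid tissue 2 and 4632 and 3362 in lung. SPINT2, an inhibitor of membrane proteases, had 21.2 to 78.2 in TFCOs and 22.9 in thyroid tissue 1, against 5465 in thyroid tissue 2 and 4245 and 2162 in lung. The catenin CTNND1 had 108 to 218 in TFCOs and 132 in thyroid tissue 1, against 4019 in thyroid tissue 2 and 5135 and 6373 in lung. These 3 are among the 4 genes, of 77 junction genes and regulators tested, that were 8-fold or more apart between all libraries of the sets, against 4.41% of all genes; being chosen this way, each divides the 2 thyroid tissues, and a difference that shrinks with the set as a term follows from the choice. F11R and CTNND1 passed the threshold between TFCOs and lung (by -9.15 and -5.20 log2 units, limma adjusted p = 0.0414 and 0.0373), and with the set as a term the differences were -0.04 and -0.28 (limma adjusted p = 0.988 and 0.841).

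**Figure D4:**
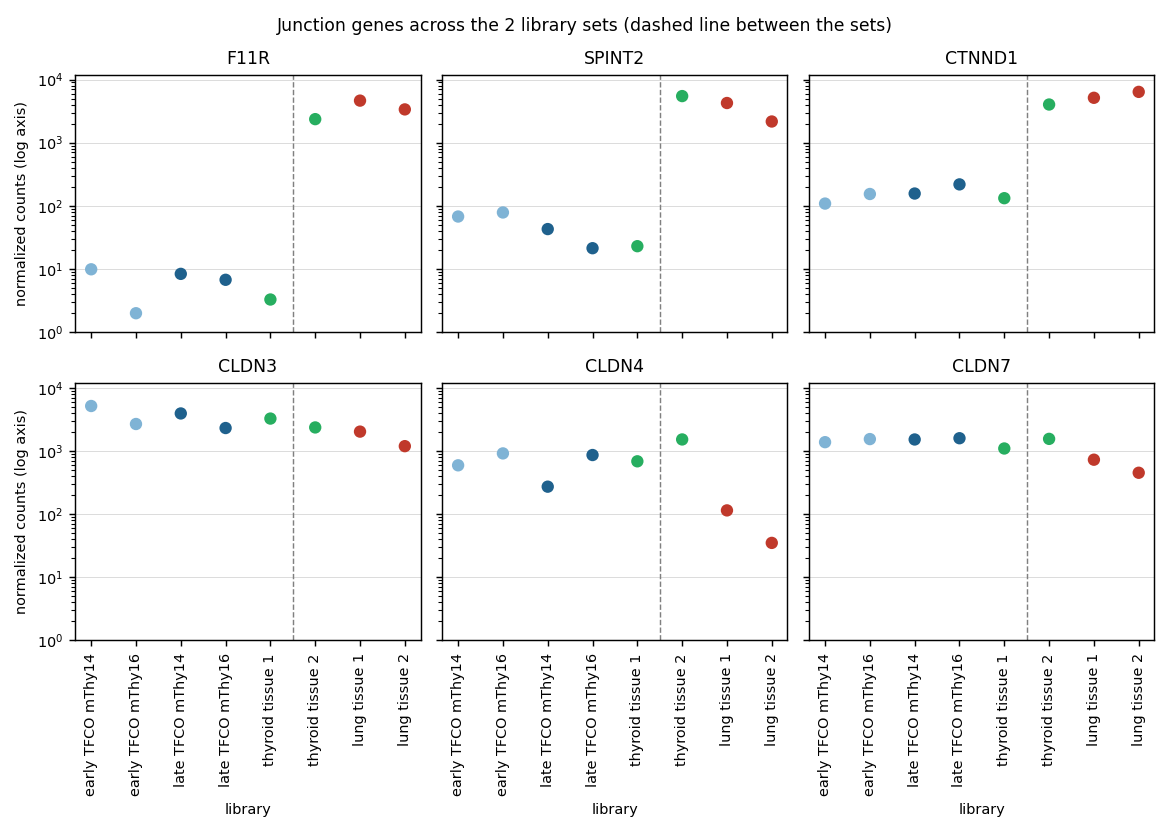
Normalized counts (y axis, log scale) of 3 junction genes that follow the library sets, beside CLDN3, CLDN4 and CLDN7, in the 8 libraries (x axis, 1 point per library, coloured by group); the dashed line separates the sets. F11R is at most 9.84 left of the line and at least 2357 right of it, whereas CLDN3 and CLDN7 show no such step between thyroid tissues 1 and 2.

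Sequence before the starts was at hand for 8 of the 10 claudins, in 11 windows of 250 bases; CLDN8 and CLDN23 are not among them. Each motif was searched on both strands as exact letters. Starts and distances are those of the promoter table, and some windows overlap annotated exons. Of the 250 bases, 116 were exonic for CLDN6, 221 for the second start of CLDN7 and 218 for the second start of CLDN10. The cAMP response element TGACGTCA, of interest because forskolin raises cAMP, was in 2 of the 11 windows, 40 bases before the start of CLDN6 and 38 bases before the second start of CLDN7, and in 1.55% of 32851 promoter windows of the table. The site AACNGGTT of grainyhead-like factors was in 0 of the 11 windows and in 1.79% of all. CTCAAG, a core site of NKX2-1, was in 2 windows, 177 bases before CLDN6 and 77 before the second start of CLDN10, and in 13.3% of all. The E-box CAGGTG, which ZEB and SNAI factors bind, was in 3 windows, those of CLDN4, CLDN6 and the second start of CLDN7, and in 17.2% of all. TATAAA was in 1 window, that of CLDN2, and in 12.4% of all. A match describes these letters only, and the absence of one says nothing of whether a factor acts on the gene.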

How the data were processed

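RNA of 8 mouse libraries was measured. The deposited signal is a table of normalized counts, which the authors made by dividing each gene's read count by the size factor of its library. The methods give DESeq2, the mouse genome and a stranded polyA kit, whereas the labels describe adapted CEL-Seq libraries, and the processing notes list BWA 0.6.2-r126 and the builds mm10 and hg38 with no role. The methods' kit covers whole transcripts and CEL-Seq reads their ends, which bears on any division by length.

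Values were tested as log2(normalized count + 1) with limma 3.58.1 in R 4.3.3 (mean-variance trend, two-sided, Benjamini-Hochberg adjustment over 14703 genes, threshold 0.05). Except between passages, the early and late values of each line entered as their mean, leaving 2 samples per group in 1 fit. Passages were compared in a fit of all 8 libraries. With 2 against 2, an exact permutation test cannot give a p below 0.333, and none was run. Every value above 0 was a whole multiple of 1 step per library (tolerance 0.01). edgeR 4.0.16 and DESeq2 1.42.0 were run on the reads recovered for 7 libraries. Early mThy16 was left out there because its step, 0.99, lies near 1, although its values too were whole multiples. Late mThy16 thus stands for that line, and passages were not compared with these tools. The recovered reads of early mThy16 do enter the reads given for CLDN18 and CLDN23. The limma fits of TFCOs against thyroid, thyroid against lung and late against early were tested on simulated counts.

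Between 9755081 and 16904865 reads per library lay on genes, and with 2 samples in a group the precision rests on how far those differ. Exon and coding lengths came from GENCODE M21, where 15883 symbols matched and 236 did not, and promoters from RefSeq's table. No 50-base stretch of a claudin among the 10 was shared with another gene (0%). The claudins, the lists of junction genes, regulators and markers, and the tests were chosen with earlier results of these data known. Named from a list were at most 4 genes past the threshold per comparison, those with the largest difference; OCLN, CLDN12, CLDN15, CLDN19, the genes that follow the library sets and those beside the line differences were chosen after their values were seen. Results of some genes of the lists are not reported here. Alternatives were the pseudocount, filter, scaling, trend, count tools, library set, replicate block, separate passages, division by length and leaving out each library or line.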

Additional observations from a re-analysis of the deposited data

How the results depend on the processing

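CLDN18 kept its direction and its call against lung in all 21 alternatives, from both TFCOs and thyroid. The calls of CLDN2, CLDN4 and CLDN7 in TFCOs against lung were lost in 6, 7 and 10 of 21 alternatives and those of CLDN4 and CLDN6 in thyroid against lung in 7 and 14, with the direction kept; the cause was not tested, though leaving out a tissue or line also leaves fewer samples. Of 810 values of claudins under an alternative, 716 kept direction and side of the threshold, 44 lost it, 16 gained it and 34 changed sign.

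The number of genes past the threshold depended strongly on the fit. Between TFCOs and thyroid it was 351 with edgeR, 1826 with DESeq2, 1322 with passages as separate samples, 178 with the library set as a term, and 39 to 4085 leaving out 1 library or line, against 536. Between TFCOs and lung these were 1973, 5363, 6625, 174 and 248 to 6986, against 3435. Between thyroid and lung they were 538 with edgeR, 2376 with DESeq2 and 58 to 4311 leaving out 1, against 889. Leaving out thyroid tissue 1 gave the 4085 and 6986, thyroid tissue 2 the 4311, line mThy16 the 39, lung tissue 2 the 248, and lung tissue 1 and lung tissue 2 each the 58. Between passages it was 0 to 2, with 2 without late mThy16. The lines pair the passages (correlation of line differences 0.48), and the replicate block also gave 0 genes; tissue numbers share only a number (correlation -0.07), and a replicate block on them gave 756 genes, with CLDN6 the claudin that lost its call (limma adjusted p = 0.0591).

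Sign changes were of small or line-dependent log2 differences, none of them past the threshold. Against thyroid, TFCOs had CLDN3 at -0.093 with quantile normalization and -0.22 with epithelial scaling, and CLDN7 at -0.040 and -0.28. Against lung, TFCOs had CLDN1 at 0.22 with edgeR, 0.30 with DESeq2 and 1.57 with the set term, CLDN8 at 0.0034, 0.060 and 1.51 with these and 0.61 with quantile normalization, and CLDN3 at -0.11 with epithelial scaling. Thyroid against lung had CLDN2 at -0.10 with epithelial scaling, and late against early TFCOs had CLDN1 at 0.35 with quantile normalization. Leaving out 1 library or line, TFCOs against thyroid ranged from -0.98 to 3.67 for CLDN1, -0.16 to 0.70 for CLDN3 and -0.046 to 0.46 for CLDN7. TFCOs against lung ranged from -3.38 to 1.27 for CLDN1 and -0.82 to 0.035 for CLDN8, and thyroid against lung from -1.18 to 0.060 for CLDN10. Late against early ranged from -2.45 to 2.27 for CLDN1, -0.60 to 3.67 for CLDN2, -0.78 to 0.17 for CLDN3, -1.43 to 0.23 for CLDN4, -3.50 to 1.85 for CLDN6, -1.46 to 0.74 for CLDN10 and -0.43 to 0.66 for CLDN18. CLDN18 rests on 6 reads in thyroid tissue and 18 in TFCOs, which limits the precision of that comparison.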

Other observations

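The genes whose pattern over the 8 libraries was most like that of CLDN3, the leading claudin of TFCOs, were BLCAP (Pearson's r = 0.992 on log2(normalized count + 1)), LAMTOR4 (0.985) and GPR19 (0.980). Those most like CLDN18, the leading claudin of lung, were ADAMTS8 (0.997), IGHV3-6 (0.996) and KCNE2 (0.996). The 8 libraries share 2 lines, so these are descriptions with no test. KCNE2, a subunit of potassium channels, had 352 and 205 normalized counts in lung and 0 in the other 6 libraries, and ADAMTS8, a secreted protease, had 611 and 615 in lung against 16.6 to 31.3 elsewhere. IGHV3-6, an immunoglobulin segment, had 13.4 and 10.8 in lung and 0 elsewhere, which is a level of few reads.

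SFTPB, a surfactant protein listed as an alveolar marker, had 28177 normalized counts in early mThy14, 1475 in late mThy14, 3031 and 2066 in early and late mThy16, and 25.0 and 28.6 in thyroid tissue, against 56914 and 34374 in lung. CLDN18 was at most 7.83 in these TFCO libraries.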
